A study of Mus musculus with 15 samples.

Results

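Globin RNA was measured in mouse brainstem together with 2 other genes of the red blood cell lineage. The 9 genes were taken by name from the 57180 Ensembl identifiers of the count tables. They are the adult α-globins Hba-a1 and Hba-a2, the adult β-globins Hbb-bs and Hbb-bt, the embryonic globins Hba-x, Hbb-bh1 and Hbb-y, the haem synthesis gene Alas2 and the membrane gene Slc4a1. They were chosen with their levels in these libraries already known. Their levels and changes are therefore a description and carry no test.

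The study examined how AMP-activated protein kinase (AMPK) and the LIM homeobox factor Lmx1b act on the brainstem centres that control ventilation. The AMPK experiment holds 3 WT libraries (AMPK+/+) and 3 libraries labelled AMPK-/-, which the study describes as AMPKα2-/- neonatal mice with WT littermates. The Lmx1b experiment holds 3 WT libraries (LMX1B+/+), 3 labelled Lmx1b+/- and 3 labelled Lmx1b-/-, from prenatal littermates. All mice were C57BL/6. No treatment is given for any library, and the sex and the number of animals behind a library are not given in the sources used here. Postnatal mice were aged postnatal days 1 to 5, and the embryonic day of the prenatal tissue is likewise not given. Since nothing says that the 3 libraries of a group came from separate animals, p-values measure only the spread between these libraries. The study describes a saline perfusion for brains that were sectioned, and whether the tissue used for RNA was perfused is not given in the sources used here.

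Haemoglobin is a tetramer of α-like and β-like globin chains, each carrying haem. In the mouse embryo, primitive red cells from the yolk sac make the embryonic chains, and definitive red cells from the fetal liver then replace them and make the adult chains. Immature red cells keep globin mRNA in the circulation, so bulk tissue that holds blood also holds globin reads, and neural tissue itself makes little globin. In bulk tissue, fewer cells of a type and less RNA per cell cannot be told apart.

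Total counts lay between 28833130 and 37441679 in the Lmx1b experiment. In the AMPK experiment, 4 libraries held 14975095 to 17384171 counts, while WT library 2 held 291212 and AMPKα2-/- library 3 held 335986. In CPM (counts per 1000000 of the library total after TMM scaling), 3 counts correspond to 0.0675 to 0.198 in the 13 deeper libraries and to 9.96 and 9.04 in the shallow pair. Prkaa2, which encodes AMPKα2, lay between 21.9 and 29.6 CPM in WT, while the AMPKα2-/- label held 25.3, 22.2 and 12.1 CPM, so its RNA does not separate these labels. Lmx1b lay at 0.848 to 1.45 CPM in Lmx1b-/- against 9.72 to 22.5 CPM in WT, and at 11.9 to 30.5 CPM in the libraries labelled Lmx1b+/-, which overlap WT. The genotype names stand for the labels throughout. The labelled tissue was checked with 8 neuronal genes, at a summed 3218 to 6672 CPM, and 8 hindbrain Hox genes, at a summed 45.1 to 609.9 CPM over the libraries. Scaling by library size alone, in place of TMM, shifted the median log2 change over all genes from -0.03 to -0.27 in Lmx1b+/- against WT, from 0.02 to 0.22 in Lmx1b-/- against Lmx1b+/- and from -0.01 to -0.18 in the AMPK experiment. The part of all called genes that was higher then went from 53.0% to 26.1%, from 45.1% to 74.2% and from 42.1% to 14.5%.

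The stretches of 150 bases before the start of 5 members are shown to place the adult and embryonic genes beside each other (RefSeq, GRCm38.p6, 5′ to 3′ on the gene's strand). The α cluster lies on chromosome 11, with Hba-a1 at chr11:32283522-32283671 and Hba-x at chr11:32276450-32276599, both on the plus strand. The β cluster lies on chromosome 7, with Hbb-bs at chr7:103827929-103828078 and Hbb-y at chr7:103853208-103853357, both on the minus strand. Alas2 is read from chrX:150547267-150547416 on the plus strand. Capitals mark matches on either strand to 4 short words, named here the CAAT box (written CCAAT), the CAC box (written CACCC), the TATA box (written TATAA) and the GATA word (written GATAA).
Hba-a1: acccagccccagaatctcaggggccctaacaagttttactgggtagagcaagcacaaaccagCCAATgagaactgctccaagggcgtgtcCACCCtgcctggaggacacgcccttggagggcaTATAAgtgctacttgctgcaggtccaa
Hbb-bs: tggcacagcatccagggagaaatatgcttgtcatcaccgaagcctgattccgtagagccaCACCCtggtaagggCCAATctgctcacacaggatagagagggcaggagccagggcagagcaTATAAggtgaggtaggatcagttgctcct
Hba-x: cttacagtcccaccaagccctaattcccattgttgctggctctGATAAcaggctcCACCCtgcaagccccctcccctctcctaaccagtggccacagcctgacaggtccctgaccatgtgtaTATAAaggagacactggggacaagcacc
Hbb-y: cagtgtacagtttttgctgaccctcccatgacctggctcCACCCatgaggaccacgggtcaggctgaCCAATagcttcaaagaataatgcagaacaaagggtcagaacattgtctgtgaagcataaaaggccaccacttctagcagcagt
Alas2: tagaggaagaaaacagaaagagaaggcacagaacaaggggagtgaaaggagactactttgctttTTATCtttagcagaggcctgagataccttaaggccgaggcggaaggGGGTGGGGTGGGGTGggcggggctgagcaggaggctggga
The window of Hba-a1 held 1 CAAT box, 1 CAC box and 1 TATA box, the last 27 bases before the start. Hbb-bs held the same 3 words once each, with its TATA box 29 bases before the start. Hba-x held a CAC box, a TATA box and a GATA word but no CAAT box, and Hbb-y held a CAAT and a CAC box but no TATA box. Alas2 held 3 CAC boxes and 1 GATA word, all on the opposite strand. No matches overlapped in these windows. Over 32851 promoters of the same length, 24.5% held the CAAT box, 37.4% the CAC box, 14.2% the TATA box and 13.3% the GATA word. A match is a description of the letters and not a site of binding. The sequences around the start of Hba-a1 and Hba-a2 were identical over the 297 bases compared, which include some bases after the start.

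Both adult α-globins were highest in the libraries labelled Lmx1b+/-. Hba-a1 was measured at 127, 236 and 284 CPM in the WT libraries 1 to 3 of the Lmx1b experiment, at 1598, 921 and 938 CPM in Lmx1b+/- and at 259, 400.3 and 722 CPM in Lmx1b-/-. All 3 Lmx1b+/- libraries lay above the other 6, while Lmx1b-/- overlapped WT. Relative to WT, the log2 change of Hba-a1 was 2.42 (SE 0.35) in Lmx1b+/- and 1.09 (SE 0.35) in Lmx1b-/-. Hba-a2, the neighbouring copy, had 104, 227 and 249.9 CPM in WT, 1009, 376 and 1988 CPM in Lmx1b+/- and 191, 176 and 341 CPM in Lmx1b-/-. Here the lowest Lmx1b+/- library lay only just above the highest Lmx1b-/- library. Its log2 change was 2.54 (SE 0.46) in Lmx1b+/- and 0.28 (SE 0.47) in Lmx1b-/-, with 1.84 for Lmx1b+/- when its library 3 was left out.

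The adult β-globins followed the same order of groups. Hbb-bs, the member with the highest level per length (RPKM) in 15 of 15 libraries, reached 195, 355 and 423 CPM in WT, then 2559.7, 1391 and 3539 CPM in Lmx1b+/- and 431, 518 and 881 CPM in Lmx1b-/-. The Lmx1b+/- libraries stood clear of both other groups. Lmx1b-/- lay above WT in CPM without overlap, but the RPKM values of these groups overlapped. The log2 change against WT was 2.94 (SE 0.35) in Lmx1b+/- and 0.91 (SE 0.35) in Lmx1b-/-. Hbb-bt, the second adult β gene, reached 75.3, 138 and 274 CPM in WT, then 854, 819.95 and 980.4 CPM in Lmx1b+/- and 164, 189 and 406 CPM in Lmx1b-/-. It had the narrowest range of the adult globins in Lmx1b+/-, and its log2 change there was 2.45 (SE 0.39), against 0.64 (SE 0.39) in Lmx1b-/-.

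**Figure D1:**
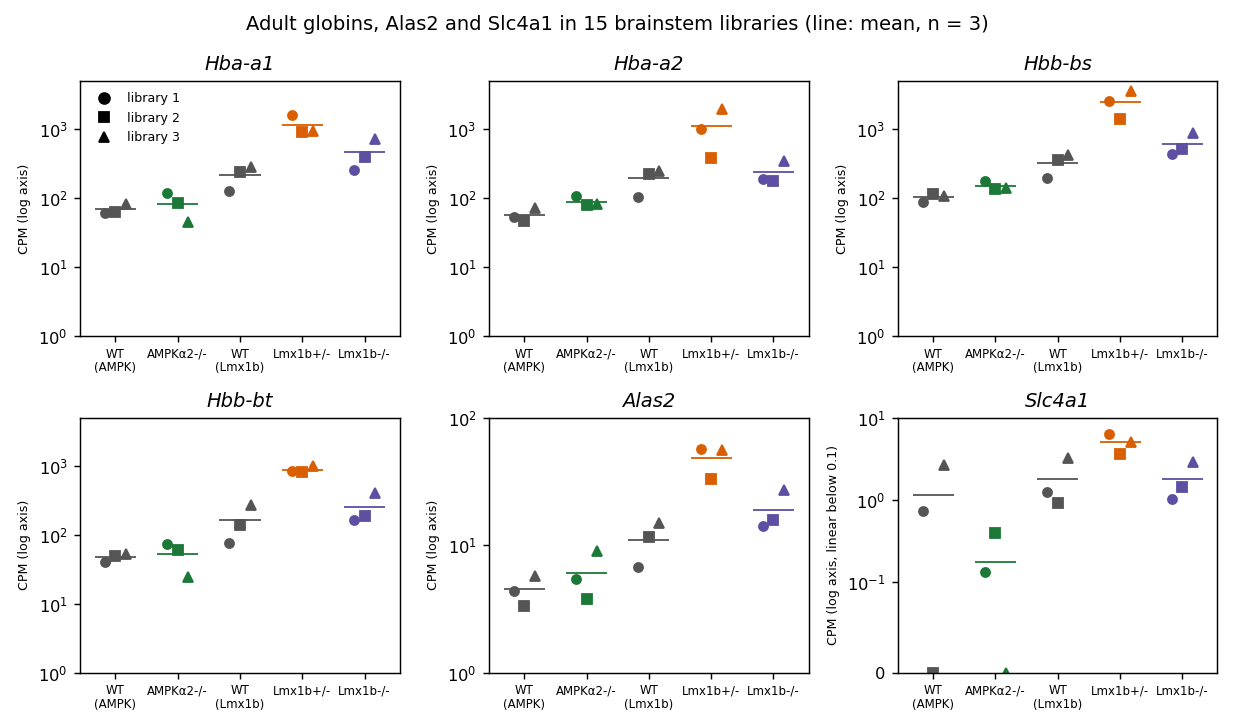
Levels of 6 members in each of the 15 libraries, in CPM on a log axis (linear below 0.1 for Slc4a1), by genotype group, with points for libraries 1 to 3 and a line at the mean (n = 3). For each gene the 3 libraries labelled Lmx1b+/- lie above the other libraries of the Lmx1b experiment, and the AMPK libraries lie below them as well for the adult globins and Alas2.

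Summed over the 4 adult globins, the level was 896 ± 369 CPM in WT, 5658 ± 1993 CPM in Lmx1b+/- and 1559 ± 695 CPM in Lmx1b-/- (SD, n = 3 each). The mean of Lmx1b+/- was 6.32 times that of WT and 3.63 times that of Lmx1b-/-, and its lowest library, at 3509 CPM, lay above the highest of the other 6, at 2349 CPM. The 7 globins together took 0.347% to 0.664% of all counts in Lmx1b+/-, 0.110% to 0.243% in Lmx1b-/- and 0.0484% to 0.153% in WT. Of the 6 members other than the embryonic globins, 6 were called higher in Lmx1b+/- than in WT and 6 lower in Lmx1b-/- than in Lmx1b+/- at an adjusted p under 0.05. Over all 21729 genes tested, 19.4% were called higher in the first comparison (36.7% in either direction) and 14.0% lower in the second (25.5% in either direction), and the comparisons share the Lmx1b+/- libraries. In Lmx1b-/- against WT, 0 of the 6 were called, beside 0.0% of all genes called higher and 0.0184% called lower. Because the members were chosen from these levels, nothing is read from these counts. With TMM computed without the globin counts, the order of the groups did not change.

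In the AMPK experiment the summed adult globins lay below those of each library of the Lmx1b experiment, although Hba-a2 alone overlapped between the experiments. Since the tables were scaled separately, levels set across them are only side by side. The summed adult globins were at 241, 272 and 315 CPM in WT against 478, 359 and 289 CPM in the libraries labelled AMPKα2-/-. The groups overlapped through AMPKα2-/- library 3, whose sum rests on 96 counts. Hba-a2 was at 52.7, 46.5 and 71.0 CPM in WT and 107, 79.5 and 81.4 CPM in AMPKα2-/-, and Hbb-bs at 87.6, 113 and 108 CPM against 179.7, 134 and 139 CPM. These genes did not overlap between genotypes in CPM but did in RPKM, whereas Hba-a1 and Hbb-bt did. The log2 changes were 0.61 (SE 0.19) for Hba-a2, 0.60 (SE 0.18) for Hbb-bs, 0.37 (SE 0.22) for Hba-a1 and 0.38 (SE 0.23) for Hbb-bt. Hba-a2 and Hbb-bs were called, beside 3.77% of all 17397 genes tested called higher and 8.94% in either direction. This fit includes the shallow libraries, in which Hba-a2 held 14 and 27 counts. As the members were chosen with their levels known, nothing is read from these calls. Without the shallow pair of libraries, the log2 changes were 0.60 for Hba-a2 and 0.69 for Hbb-bs, but over all 18088 genes then tested only 3 were called higher and 3 lower (0.0332%).

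The balance between the near-identical adult copies varied among libraries of the same genotype. Of the 699-base transcript of Hba-a1, 67.5% of all 50-base stretches also occur in Hba-a2, and 86.9% of those of Hba-a2 occur in Hba-a1, so reads could be assigned to either copy. Between Hbb-bs and Hbb-bt the shares were 65.8% and 58.3%. Hba-a1 held 54.8%, 50.9% and 53.2% of adult α counts in the WT libraries of the Lmx1b experiment and 51.7% to 54.0% in the 4 deeper AMPK libraries. In Lmx1b+/- it held 61.3%, 71.0% and 32.1%, and in Lmx1b-/- 57.5%, 69.4% and 67.9%. Thus the Lmx1b+/- libraries lay on both sides of WT, and all 3 Lmx1b-/- libraries lay above it. Hbb-bt held 27.9%, 27.9% and 39.3% of adult β counts in WT, 25.0%, 37.1% and 21.7% in Lmx1b+/-, and 27.5%, 26.7% and 31.6% in Lmx1b-/-, with all groups overlapping. The α share of all adult globin counts was steadier, at 46.0% ± 2.53 in WT, 39.9% ± 3.20 in Lmx1b+/- and 44.4% ± 1.14 in Lmx1b-/- (SD, n = 3). The highest Lmx1b+/- library (43.3%) and the lowest WT library (43.4%) were nearly equal.

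**Figure D2:**
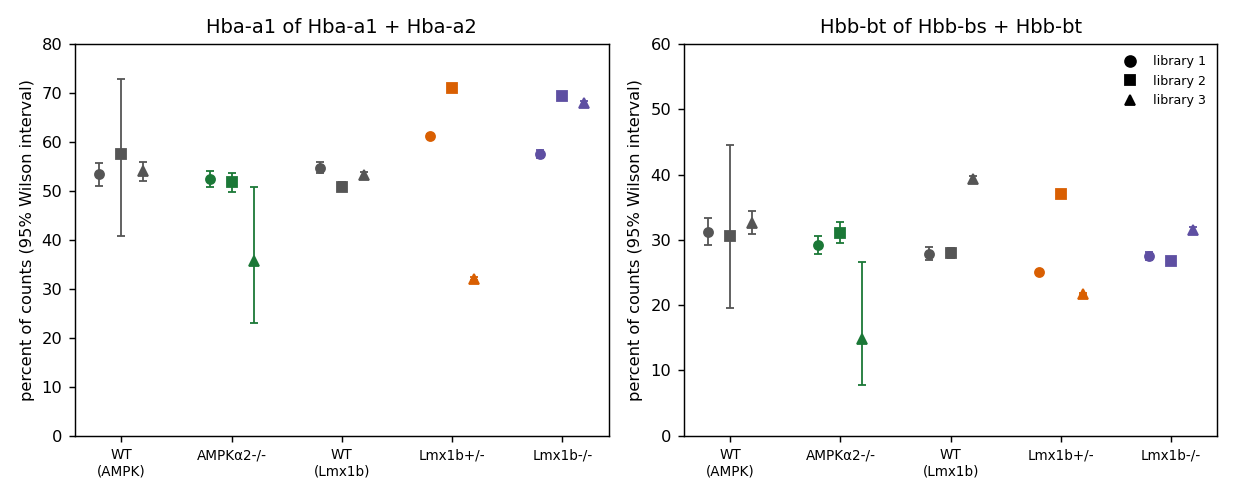
Percent of adult α-globin counts on Hba-a1 (left) and of adult β-globin counts on Hbb-bt (right) in each library, with 95% Wilson intervals, by genotype group. The libraries labelled Lmx1b+/- spread from 32.1% to 71.0% on the left, and the wide intervals belong to the shallow AMPK libraries.

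Embryonic globin counts were few in every library. Hba-x, the ζ-like α chain of primitive red cells, had 3, 3 and 7 counts in WT, 18, 7 and 40 in Lmx1b+/-, and 1, 3 and 4 in Lmx1b-/-. Hbb-y, the ε-like embryonic β chain, had 0, 0 and 2 counts in WT, 26, 11 and 50 in Lmx1b+/-, and 1, 0 and 9 in Lmx1b-/-. For both genes each Lmx1b+/- library lay above all 6 others in CPM. Hbb-bh1, the other embryonic β chain, reached 3, 0 and 7 counts in Lmx1b+/- and at most 1 elsewhere. Hba-x and Hbb-bh1 did not pass the filter on low counts, and Hbb-y passed it only through the Lmx1b+/- libraries, where it is high, so its call there adds nothing. Their transcripts share no 50-base stretch with any other member globin, so an exact match of that length does not move adult reads to them. Per length, Hbb-y reached 1.30 ± 0.78 RPKM and Hba-x 0.652 ± 0.455 RPKM in Lmx1b+/-, against 2895 ± 1161 RPKM for Hbb-bs (SD, n = 3).

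To separate how much blood RNA was present from which globins it held, embryonic counts were set against all globin counts of the same library. The embryonic share was 0.0210%, 0.0109% and 0.0183% in WT, 0.0282%, 0.0165% and 0.0390% in Lmx1b+/-, and 0.00617%, 0.00925% and 0.0147% in Lmx1b-/-. The Lmx1b+/- libraries overlapped WT and lay above Lmx1b-/-, and Lmx1b-/- overlapped WT. Summed over libraries, 162 of 523995 globin counts were embryonic in Lmx1b+/-, 16 of 96600 in WT and 19 of 164378 in Lmx1b-/-. The ratio of Lmx1b+/- to WT was 1.87 (95% interval 1.12 to 3.34) and of Lmx1b+/- to Lmx1b-/- 2.68 (1.66 to 4.56). Such intervals cover counting error only, not the spread between libraries.

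The shares were also taken within each cluster. Hbb-y held 0.0275%, 0.0160% and 0.0331% of β-like counts in Lmx1b+/-, against 0, 0 and 0.00646% in WT and 0.00543%, 0 and 0.0185% in Lmx1b-/-. Lmx1b+/- did not overlap WT, and it overlapped Lmx1b-/- through library 3 of the latter. Over the summed counts the Hbb-y share was 7.33 times that of WT (95% interval 1.97 to 61.5), with only 2 counts in WT. Hba-x held 0.0250%, 0.0174% and 0.0410% of α-like counts in Lmx1b+/-, 0.0456%, 0.0224% and 0.0295% in WT, and 0.00716%, 0.0154% and 0.00997% in Lmx1b-/-. Here Lmx1b+/- overlapped WT, with a ratio of 1.04 (95% interval 0.568 to 2.06), and Lmx1b-/- lay below both. The intervals of the Hbb-y and Hba-x ratios overlapped, the difference between the clusters was not tested, and these shares are a description of members chosen with their levels known.

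**Figure D3:**
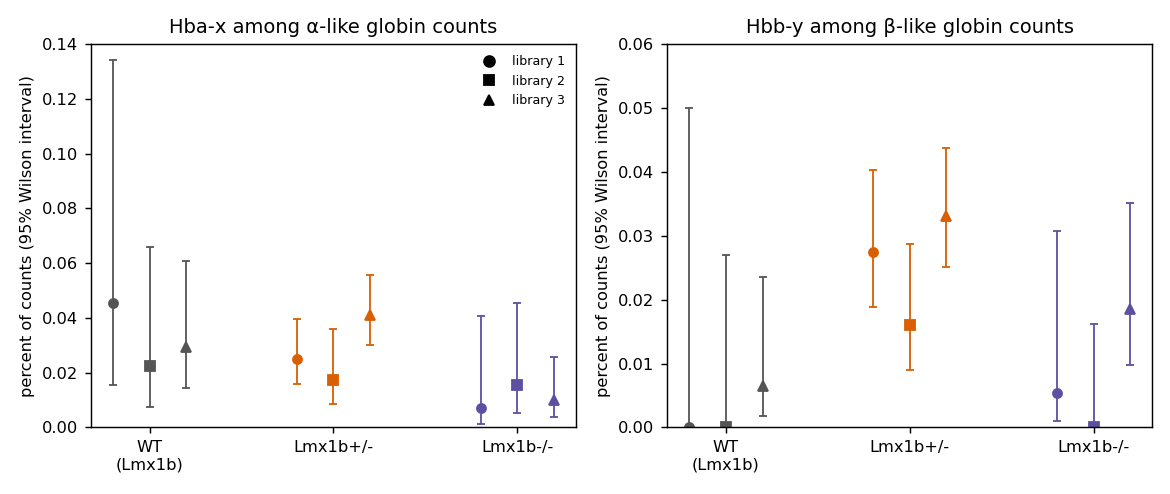
Percent of α-like globin counts on Hba-x (left) and of β-like globin counts on Hbb-y (right) in the 9 libraries of the Lmx1b experiment, with 95% Wilson intervals of the counts. Hbb-y lies at 0.0160% to 0.0331% in the libraries labelled Lmx1b+/- and at up to 0.00646% in WT, whereas the Hba-x shares of these groups overlap.

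No embryonic globin count was found in the AMPK experiment, 0 of 22065 globin counts, which allows a share of up to 0.0136%. The 95% Wilson interval of this share reaches 0.0174%. The summed share was 0.0309% in Lmx1b+/-, 0.0166% in WT and 0.0116% in Lmx1b-/- of the Lmx1b experiment. Its Lmx1b-/- share lay below both limits, so a share that low was not detectable with certainty at this depth in the AMPK libraries. Its WT share lay between the limits, above 0.0136% and below 0.0174%, so for such a share the limits differ.

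Alas2 encodes the erythroid form of the first and rate-limiting enzyme of haem synthesis. Its level was 6.75, 11.6 and 14.8 CPM in WT, 56.9, 33.3 and 55.4 CPM in Lmx1b+/- and 14.1, 15.8 and 26.9 CPM in Lmx1b-/-. The Lmx1b+/- libraries stood apart and the other groups overlapped, with log2 changes against WT of 2.12 (SE 0.29) and 0.77 (SE 0.29). Set against adult globin, the order turned. Alas2 made up 0.937%, 0.941% and 0.739% of the sum of Alas2 and adult globin counts in Lmx1b+/-, 1.33%, 1.20% and 1.19% in WT, and 1.33%, 1.21% and 1.13% in Lmx1b-/-. All 3 Lmx1b+/- libraries lay below the other 6, so Alas2 was higher in Lmx1b+/- by a smaller factor than the globins were. In the AMPK experiment Alas2 was at 4.40, 3.32 and 5.76 CPM in WT and 5.47, 3.75 and 9.04 CPM in AMPKα2-/-, where the last value is 3 counts, and its log2 change was -0.04 (SE 0.37).

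**Figure D4:**
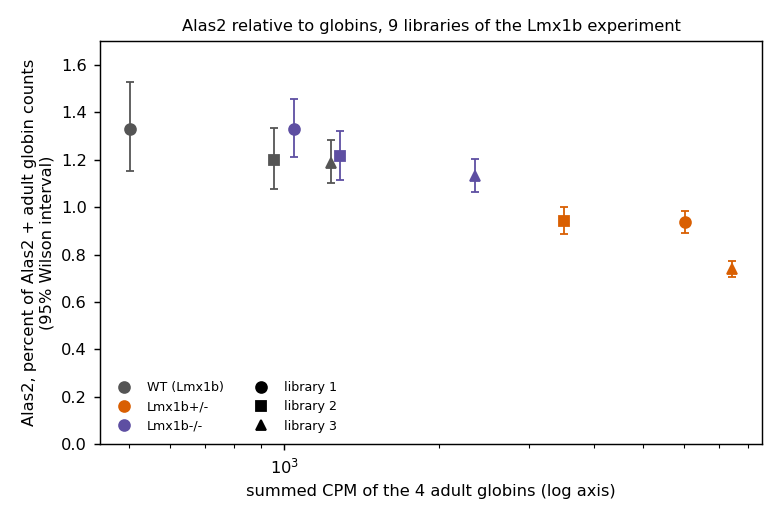
Alas2 as a percent of Alas2 plus adult globin counts (vertical axis, 95% Wilson intervals) against the summed CPM of the 4 adult globins (log axis) in the 9 libraries of the Lmx1b experiment. The 3 libraries labelled Lmx1b+/- lie at 0.739% to 0.941%, and the other 6 at 1.13% to 1.33%.

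Slc4a1 encodes band 3, the anion exchanger of the red cell membrane. Its level was 1.23, 0.900 and 3.24 CPM in WT, 6.36, 3.61 and 5.06 CPM in Lmx1b+/-, and 1.03, 1.42 and 2.91 CPM in Lmx1b-/-. Lmx1b+/- lay above the other groups in CPM, but its lowest library came close to WT library 3, and in RPKM it overlapped WT. The log2 change against WT was 1.44 (SE 0.44) in Lmx1b+/- and -0.03 (SE 0.46) in Lmx1b-/-, and without WT library 3 these became 2.24 and 0.74. In the AMPK experiment WT library 3 held 46 Slc4a1 counts, against 11 in WT library 1 and 2 and 6 in AMPKα2-/- libraries 1 and 2. The same WT library held 143 counts of S100a9 and 161 of Ngp, both neutrophil genes, against 5 to 6 and 3 to 10 in the other deep libraries. It also held 391 counts of the muscle globin Mb against 3 to 6, and the part of these in the Slc4a1 value was not tested.

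Per length, the order of means in Lmx1b+/- was Hbb-bs, Hba-a2 (1493 ± 1067 RPKM), Hba-a1 (1266 ± 332 RPKM), Hbb-bt (1138 ± 114 RPKM), then Alas2 (18.0 ± 3.75 RPKM), Hbb-y, Slc4a1 (0.913 ± 0.179 RPKM), Hba-x and Hbb-bh1 (SD, n = 3). Hba-a2, Hba-a1 and Hbb-bt did not differ beyond their spread, nor did Hbb-y, Slc4a1 and Hba-x. By group, the order of the summed adult globins was Lmx1b+/-, Lmx1b-/-, WT of the Lmx1b experiment, AMPKα2-/- and WT of the AMPK experiment, where Lmx1b-/- and WT overlapped, as did the AMPK groups.

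The 4 adult globins, Alas2 and Slc4a1 varied together across the 9 libraries of the Lmx1b experiment. The Pearson r of log2 CPM over their 15 pairs ran from 0.82 to 0.99 with a median of 0.93, which includes the difference between genotypes. After the group means were taken away, r ran from 0.50 to 0.95 with a median of 0.79. Among 21722 other genes, those most alike to the summed adult globins were Ube2l6, Ywhae, Gm5620, Lrch2 and Dcaf13 (r = 0.98 each, n = 9 libraries). Ube2l6 lay at 4.57 to 7.68 CPM in WT, 14.7 to 19.2 CPM in Lmx1b+/- and 6.71 to 10.3 CPM in Lmx1b-/-. For the summed embryonic globins they were Tmsb10 (r = 0.99), Zmat5, Khdrbs2, Babam1 and Mrps15 (r = 0.97 to 0.98). The libraries of a genotype share whatever else sets them apart. For the adult sum, Bpgm, a gene listed for red cells, came at rank 89 (r = 0.96). Urod, a haem synthesis gene, came at rank 2943 (r = 0.83).

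For the other genes of the lineage, the quasi-likelihood test of edgeR was used, with p adjusted over all genes. Of 50 listed genes outside the members, 38 passed the filter in the Lmx1b experiment. In Lmx1b+/- against WT, 6 of them were higher (15.8%, beside 19.4% of all genes) and 11 lower (28.9%, beside 17.3%), with a median log2 change of -0.18 against -0.03 over all genes. Leaving out Lmx1b+/- library 3 gave 3 higher and 4 lower, and the lower count was 5 without WT library 1 and 7 without WT library 3. Bpgm, which makes the 2,3-bisphosphoglycerate that lowers the oxygen affinity of haemoglobin, measured 41.7, 43.8 and 47.2 CPM in WT, 78.4, 74.4 and 96.1 CPM in Lmx1b+/- and 53.7, 55.3 and 56.5 CPM in Lmx1b-/-. The 3 groups did not overlap. Its log2 change against WT was 0.91 (SE 0.10, adjusted p = 3.85e-05) in Lmx1b+/-, and in Lmx1b-/- against Lmx1b+/- it was -0.59 (SE 0.10, adjusted p = 0.00137), in edgeR's test.

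Among the 23 genes listed as lineage-restricted, 11 were tested. By edgeR, 4 were higher in Lmx1b+/- than in WT (36.4%, beside 19.4% of all genes) and 2 lower (18.2%, beside 17.3%). Bpgm was among these 4 and kept its call under 14 of 14 alternatives. The summed level of the 23 was 225 to 253 CPM in Lmx1b+/- and overlapped WT, at 189 to 247 CPM. Bpgm alone averaged 83.0 CPM in Lmx1b+/-, so the sum does not show how genes at low levels moved. The median log2 change of the 11 tested was 0.39, against -0.03 over all genes. In the AMPK libraries, where the adult globins were lower, the sum was 187 to 291 CPM. Bpgm averaged 53.5 CPM in WT of the AMPK experiment and 44.2 CPM in WT of the Lmx1b experiment, where the adult globins were higher. The Bpgm values of these WT groups overlapped, the AMPK mean includes shallow library 2, and the experiments were scaled separately. Expression of the listed genes in other cells of the tissue was not tested. The mitochondrial iron importer Slc25a37 rose by 0.39 (SE 0.14, adjusted p = 0.0485) and kept its call under 6 of 14. The iron sensor Tfr2 (log2 change -0.54) and the membrane protein Tmcc2 (-0.31) were lower, and kept their calls under 7 and 6 of 14. Klf1 and Gata1, the factors that drive erythroid genes, lay at up to 0.290 CPM in every library of the Lmx1b experiment and were not tested.

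Of 12 haem synthesis and iron genes tested, which many cell types use, 2 were higher (16.7%) and 3 lower (25.0%) in Lmx1b+/- by edgeR, beside 19.4% and 17.3% of all genes. Urod, the uroporphyrinogen decarboxylase, rose by 0.73 (SE 0.12, adjusted p = 0.000556), and Uros by 0.36 (SE 0.11, adjusted p = 0.0226), with its call kept under 9 of 14 alternatives. Alas1, the housekeeping counterpart of Alas2, fell by 0.39 (SE 0.10, adjusted p = 0.00673), so the isoenzymes went opposite ways. Steap3 (log2 change -0.93) and Abcb10 (-0.30) were lower, and kept their calls under 7 and 6 of 14. Fech, the last enzyme of the path, had a log2 change of 0.27 (SE 0.10, adjusted p = 0.0510).

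Membrane skeleton and globin-switching genes, several of which neurons also express, had 6 calls in Lmx1b+/- against WT, all lower, by edgeR. Of all genes, 36.7% were called in either direction in this comparison. Of 8 skeleton genes 3 were lower (37.5%, beside 17.3% of all genes). Ank1, the ankyrin that anchors band 3, fell by 0.93 (SE 0.14, adjusted p = 0.000236), and the β-spectrin Sptb by 0.58 (SE 0.15, adjusted p = 0.0105), with its call lost without WT library 1 (-0.45) or Lmx1b+/- library 3 (-0.45). The third was Dmtn (log2 change -0.38), which kept its call under 11 of 14. Of 7 switching factors, Sox6, Nr2c2 and Myb were lower (42.9%, beside 17.3% of all genes), Sox6 by 0.41 (SE 0.09, adjusted p = 0.00419). The call of Nr2c2 (-0.41) was lost without WT library 1 (-0.31), and that of Myb (-0.86) without WT library 2 or Lmx1b+/- library 3. Bcl11a, the repressor of embryonic and fetal globin, had a log2 change of -0.04 (SE 0.17, adjusted p = 0.888), and Lin28b one of -0.33 (SE 0.19, adjusted p = 0.187).

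In Lmx1b-/- against WT, 0 of the 38 genes were called by edgeR, with 1 at an unadjusted p under 0.05, and 0 by DESeq2. Against Lmx1b+/-, 3 were lower in Lmx1b-/-, Bpgm and Urod among them, and 4 higher (Ank1, Sptb, Sox6 and Tfr2), beside 14.0% and 11.5% of all genes. Tfr2 kept its call under 5 of 14 alternatives and Sptb under 9 of 14. The higher count was 2 without Lmx1b+/- library 3, and 2 without Lmx1b-/- library 1 or library 3. In the AMPK experiment 32 genes were tested, and 0 were higher by edgeR in AMPKα2-/- (1 at an unadjusted p under 0.05, 0 by DESeq2) and 6 lower, beside 5.17% of all genes. Ank1 fell by 1.65 (SE 0.21, adjusted p = 0.000139) and Sptb by 1.26 (SE 0.21, adjusted p = 0.00104), with Zbtb7a, Nr2c2, Tmcc2 and Epb41 also lower. The lower count was 2 without WT library 3, 3 without AMPKα2-/- library 1, 2 without AMPKα2-/- library 3 and 0 without the shallow pair.

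**Figure D5:**
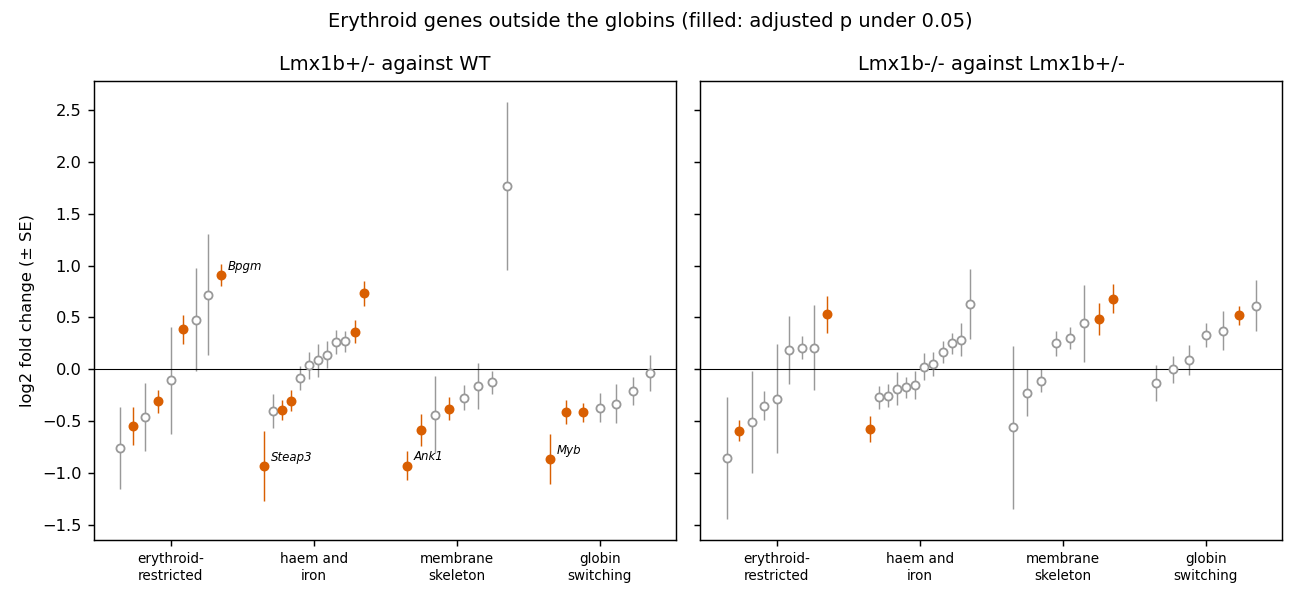
log2 change with its SE (vertical axis) of the tested red cell genes outside the members that are reported here, by list, in Lmx1b+/- against WT (left) and Lmx1b-/- against Lmx1b+/- (right), with filled points for an adjusted p under 0.05. Bpgm and Urod are filled above 0 on the left and below 0 on the right, and Ank1 the other way round.

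Markers of other sources of blood or of developmental stage moved as follows beside the globins. Platelet genes stayed level, with a summed level of 7.31 to 7.99 CPM in Lmx1b+/- and 7.34 to 9.52 CPM in WT, and 0 of 4 tested were called by edgeR (0 at an unadjusted p under 0.05, 0 by DESeq2). Of 6 tested leukocyte genes 2 were higher in Lmx1b+/- (33.3%, beside 19.4% of all genes), S100a9 with a log2 change of 1.73 (SE 0.62) and Lyz2 with 1.05 (SE 0.26), while the summed level of 11 was 40.7 to 51.6 CPM against 37.2 to 46.6 CPM. Of 8 endothelial genes 3 were lower (37.5%, beside 17.3% of all genes), Flt1, Kdr and Cdh5. Their list was lower in Lmx1b-/- as well, with a median log2 change against WT of -0.48, beside -0.47 in Lmx1b+/-. There 0 of 8 were called by edgeR, and 7 were lower at its unadjusted p under 0.05, beside 551 of all 21729 genes. The summed level was 153 to 201 CPM in WT, 103 to 139 CPM in Lmx1b+/- and 120 to 132 CPM in Lmx1b-/-. For fetal liver and yolk sac 8 genes were listed. Alb and Afp, which define these tissues, had at most 2 and 9 counts in any library. In Lmx1b+/- against WT, 0 of 5 tested among the 8 were called by edgeR (1 at an unadjusted p under 0.05, 1 by DESeq2). Their summed level ranged from 76.0 to 1522 CPM in Lmx1b+/- and from 214 to 353 CPM in WT, mostly from Ttr, which the choroid plexus also makes, at 63.3 to 1509 CPM in Lmx1b+/-. Genes of maturing glia and neurons were lower in 8 of 8 cases in Lmx1b+/- than in WT, beside 17.3% of all genes, from Mog (-0.51, SE 0.17) to Mobp (-3.16, SE 0.41). Their summed level was 366 to 401 CPM in Lmx1b+/-, 577 to 771 CPM in WT and 711 to 827 CPM in Lmx1b-/-. Of 8 genes of early progenitors 1 was higher (12.5%, beside 19.4% of all genes), and their summed level of 214 to 304 CPM overlapped that of WT (247 to 305 CPM). The AMPK libraries, which the study describes as neonatal, stood far from all of these. They held 15355 to 26255 CPM for the maturing and 16.7 to 29.0 CPM for the progenitor genes. Mbp lay there at 6783 to 11771 CPM, against 35.5 to 73.7 CPM in the Lmx1b experiment, and Igf2bp1 had 0 counts in each AMPK library. The age of the AMPK tissue rests on the words of the study and was not tested. In the hindbrain Hox list 5 of 8 were higher in Lmx1b+/- (62.5%, beside 19.4% of all genes). The part of stage, of the dissected region and of the blood held by the tissue in the globin levels was not tested.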

How the data were processed

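Polyadenylated RNA of brainstem was sequenced as 15 libraries in 2 experiments. For each experiment the authors deposited a table of counts per gene and a table of RPKM per gene, which scales those counts by gene length and by the library total. The study names systemPipeR and hisat2. The submitters' processing notes give HISAT2 and GRCm39, while the counter, the annotation, any use of molecular labels and the handling of reads with several matches are not given in the sources used here. Columns were assigned by genotype and number, with 0 other columns. The column name of AMPK WT library 3 has an added suffix, and WT library 3 of the Lmx1b table carries the number of its library name. Of 57180 identifiers, 51884 (90.7%) matched a symbol.

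R 4.3.3 and edgeR 4.0.16 were used on the counts. Low genes were removed with filterByExpr, TMM gave the scaled totals, and CPM express counts per 1000000 of them. The quasi-likelihood F-test was fitted to the 6 AMPK and to the 9 Lmx1b libraries, with Benjamini-Hochberg adjustment over all tested genes and a threshold of 0.05. DESeq2 1.42.0 was an alternative. The scripts were tested on simulated data. Wilson intervals are at 95%, and intervals of ratios are exact conditional ones. A count of 0 was taken to allow 3 counts.

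The members and all lists were chosen with earlier results of these data known. Named were the members, list genes past the threshold (at most the 10 of smallest p per comparison in full), examples of each role, and the 5 genes most alike to each globin sum by Pearson r of log2 CPM (prior count 2). Ahsp had no matching identifier. Promoters are from RefSeq, in which Hbb-bh1 and Slc4a1 were not matched. Some tested genes of the lists count in the totals but are not reported here by name.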

Additional observations from a re-analysis of the deposited data

How the results depend on the processing

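Depth limits the embryonic globins, with at most 50 counts per gene and library, and every value of the shallow AMPK libraries. No called value changed sign. Among log2 changes that were not called, the sign varied for Alas2 in the AMPK experiment (-0.22 to 0.37). In Lmx1b-/- against WT it varied for Slc4a1 (-0.58 to 0.74), Hba-a2 (-0.08 to 0.48) and Hbb-y (-0.26 to 4.63). The count of called erythroid genes outside the members moved by more than 1.5 times as follows. In AMPKα2-/- against WT, the lower count of 6 became 0 without the 2 shallow libraries and ran from 2 to 9 when a library was left out, and the higher count of 0 became 1 with a replicate block. In Lmx1b+/- against WT, the lower count of 11 became 7 with only the 6 libraries compared and ran from 4 to 12 on leaving out a library, and the higher count of 6 ran from 3 to 7. In Lmx1b-/- against WT the higher count of 0 became 1 with all genes with any count. In Lmx1b-/- against Lmx1b+/-, scaling by library size only gave 9 higher and 1 lower in place of 4 and 3, all genes with any count gave 6 lower, and leaving out a library gave 2 to 4 higher and 3 to 4 lower. With the β-like genes alone, which leaves out Hba-x, the embryonic share in WT of the Lmx1b experiment was 0.00323% in place of 0.0167%. Hba-x held 13 of the 16 embryonic counts summed over these WT libraries. The cause of the other moves was not tested. Summed adult globins on leaving out a library stayed at 4765 to 6733 CPM in Lmx1b+/-, 728 to 1093 CPM in WT and 1164 to 1816 CPM in Lmx1b-/-. The replicate numbers were not used as pairs. Same-numbered deviations correlated at -0.12 to 0.05 in the AMPK experiment and at -0.16 to -0.05 in Lmx1b+/- against WT. The values were -0.18 to -0.13 in Lmx1b-/- against Lmx1b+/-. In Lmx1b-/- against WT they were 0.08 to 0.15, where 3 of 3 correlated best with their own number and 1 pair was over 0.1. For that comparison these values do not settle whether the numbers pair the libraries. With the replicate block, 5 genes were higher and 8 lower in Lmx1b+/- against WT.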
